A study of Capra hircus with 3 samples.

Results

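VCAN and TNFAIP6, a pair of genes whose proteins bind hyaluronan, were followed by their symbols through a single-cell table of fetal goat skin that listed 16739 genes, of which these are 2. Both were chosen by name with their measured levels at the 3 stages in these same libraries in view, so those levels are a description, and no test is drawn from them. The samples were back skin of Northern Shaanxi White Cashmere goat fetuses (Capra hircus, no genetic modification or treatment labelled) taken at embryonic days 60, 90 and 120, named E60, E90 and E120, which the study took for the phases of follicle induction, organ formation and differentiation of hair cell types. Each stage was 1 library of droplet-based 3′ RNA sequencing, and it pooled cells from at least 2 fetuses. With 1 library per stage there was no replicate and no test between stages was possible. Skin of E60 and E90 was dissociated whole by collagenase IV and trituration. At E120 the follicles were first picked out of the skin and then dissociated with TrypLE, so stage and preparation cannot be told apart in any value of E120.

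VCAN encodes versican, a large chondroitin sulfate proteoglycan that binds hyaluronan through its N-terminal end and is held there by link proteins. It is a long-used marker of the dermal papilla, the group of specialised fibroblasts at the base of the hair follicle. TNFAIP6 encodes TSG-6, a small secreted protein that binds hyaluronan and moves heavy chains of inter-alpha-inhibitor onto it, which cross-links the hyaluronan coat around cells. Splice forms of VCAN differ in the regions that carry the chondroitin sulfate chains, and 3′ reads do not tell them apart.

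The E60, E90 and E120 libraries held 6849, 6931 and 6896 cells, with medians of 8579, 3714 and 13064 unique molecular identifiers (UMIs, the counted molecules) per cell. Levels are given as CPM, the UMIs of a gene per 1000000 UMIs of the cells named, with exact 95% Poisson intervals. Shares of cells carry exact 95% binomial (Clopper-Pearson) intervals, and both cover counting error only. Shares of cells with a UMI are given after random thinning of every cell to 2000 UMIs (no cell was shallower), with the unthinned share where stated. Mitochondrial genes took medians of 4.52%, 11.1% and 5.26% of a cell's UMIs in the same order of stages. The pairs of libraries shared 9 (E60 and E90), 10 (E60 and E120) and 13 (E90 and E120) cell barcodes. Cell classes were rebuilt by clustering without the hyaluronan genes, carry the ending "-like", and were not the study's own names.

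Over all cells of a library, VCAN was about level from E60 to E90 and much lower at E120, whereas TNFAIP6 was lower at each later stage. For VCAN the level was 266 CPM (262 to 270) in the E60, 282 CPM (276 to 288) in the E90 and 13.1 CPM (12.4 to 13.8) in the E120 library. The 17312, 8532 and 1222 UMIs behind these values put the counting error far below the step to E120. VCAN was thus 1.06-fold higher at E90 than at E60 (1.03 to 1.09) and 21.5-fold lower at E120 than at E90 (20.3 to 22.9). When each cell rather than each UMI weighed the same, the log2 ratio of E120 to E90 was -3.68 in place of -4.33.

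The TNFAIP6 level was 497 CPM in the E60 library (492 to 503), 83.6 CPM in the E90 library (80.4 to 86.9) and 0.653 CPM in the E120 library (0.500 to 0.839). The E120 value rests on 61 UMIs in 45 of 6896 cells. The step from E60 to E90 was 5.95-fold down (5.71 to 6.20), and E120 was 128-fold below E90 (99.3 to 168). On the log2(CPM + 1) scale that last step was -5.68, and with 10 CPM added in place of 1 it was -3.14. Among genes reaching 50 CPM in E60 or E120, 22.9% were at least 2-fold lower at E120 and 18.8% at least 2-fold higher, and both genes were among the lower ones. Of these 2447 genes, 2 were lower at E120 by a larger log2 ratio than TNFAIP6, and 128 by a larger one than VCAN. For the step from E60 to E90 the background was 11.5% at least 2-fold lower and 13.1% higher, and TNFAIP6 was among the lower while VCAN was past neither limit. For E90 to E120 it was 20.3% lower, with both genes among them, and 14.8% higher.

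The same order showed in the number of cells. VCAN was found in 37.8% of E60 cells (36.6 to 38.9), 38.0% of E90 cells (36.9 to 39.2) and 2.68% of E120 cells (2.31 to 3.09), and in 77.4%, 58.0% and 6.38% before thinning. TNFAIP6 was found in 54.9% (53.7 to 56.1), 14.3% (13.4 to 15.1) and 0.247% (0.144 to 0.394) of cells after thinning. Before thinning the TNFAIP6 shares were 86.6%, 25.6% and 0.653%.

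**Figure D1:**
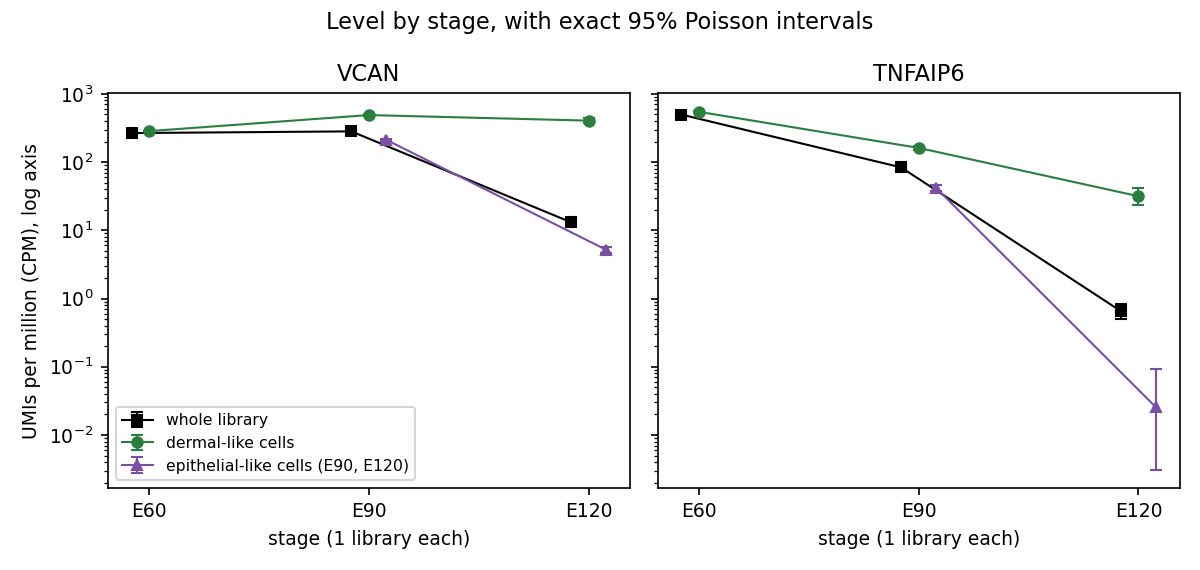
Level of VCAN and TNFAIP6 (CPM, log axis) at each stage over all cells of the library, over dermal-like cells and, for E90 and E120, over epithelial-like cells, with 1 library per stage and bars for exact 95% Poisson intervals. In dermal-like cells VCAN stays between 284 and 489 CPM while TNFAIP6 goes from 545 to 161 to 31.6 CPM.

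The mix of cells also differed between the libraries. Dermal-like cells, named by markers such as COL1A1, LUM, DCN and PDGFRA, were 4480 cells (65.4%) at E60, 1644 (23.7%) at E90 and 222 (3.22%) at E120. Epithelial-like cells were 37.9% of E90 and 79.3% of E120 cells, and the E60 library, also labelled as skin, held 3 of them. Different clusters made up the dermal-like class at each stage. At E60 it was led by clusters with TMEM35A, DKK1 or TOP2A as leading gene, at E90 by FNDC1- and BMP3-led clusters, and at E120 by a papilla-like cluster with FGF7, APOD and RSPO2 that held 209 of the 222 cells.

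Within dermal-like cells the 2 genes went different ways. VCAN had 284 CPM (279 to 289) in E60 cells, 489 CPM (473 to 505) in E90 cells and 405 CPM (373 to 439) in E120 cells, so it was highest at E90 and above its E60 level at E120. VCAN was 1.72-fold higher at E90 than at E60 (1.66 to 1.78). It was 0.829-fold the E90 level at E120 (0.759 to 0.903). TNFAIP6 had 545 CPM (538 to 552) in E60 cells, 161 CPM (152 to 171) in E90 cells and 31.6 CPM (23.2 to 42.0) in E120 cells. These TNFAIP6 steps were 3.38-fold (3.19 to 3.59) and 5.10-fold (3.81 to 6.99) down, and from E60 to E120 the level was 17.3-fold lower (13.0 to 23.5). From E90 to E120 both genes were thus lower within the dermal-like class by less than over whole libraries, where the steps were 21.5-fold for VCAN and 128-fold for TNFAIP6. The E120 cells of this class came from dissected follicles and were nearly all papilla-like, so other dermal cells of that stage were not compared. The dermal-like cells of E90 also carried epithelial markers, at 2348 CPM, against 0.850 CPM at E60 and 201 CPM at E120. In E90 epithelial-like cells these markers were at 8324 CPM. How far this bears on the steps was not tested.

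Across all genes that reached 50 CPM at either stage, 7.64% were at least 2-fold lower in dermal-like cells at E90 than at E60 and 20.2% at least 2-fold higher. TNFAIP6 was among the former, with 52 of 2501 genes lower by more, and VCAN was past neither limit. The VCAN log2 ratio passed 2-fold upward in 3 alternatives, at 1.03 in cells filtered on genes and mitochondrial share, 1.04 at the coarser and 1.22 at the finer clustering. At the coarser and finer clustering the E90 dermal-like class held 537 and 496 cells in place of 1644. At the finer one, an E90 cluster of 1396 cells nearest to dermal stayed unnamed. From E90 to E120 10.6% were at least 2-fold lower and 13.0% higher, with TNFAIP6 among the lower and 86 of 2664 genes lower by more. From E60 to E120 9.84% were lower, TNFAIP6 among them, and 22.2% were higher, without VCAN.

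Cell by cell, dermal-like cells with many VCAN UMIs made up a larger share at the later stages, and TNFAIP6 was sparser. After thinning, 0.625% of E60, 4.08% of E90 and 4.50% of E120 dermal-like cells had at least 4 VCAN UMIs, although 60.5%, 50.1% and 59.0% had 0. The ratio of variance to mean of VCAN, which is about 1 for pure counting, was 1.18, 2.05 and 1.89. The 10% of cells highest in VCAN held 43.5%, 43.5% and 47.1% of its UMIs, so by that measure E60 and E90 were alike. For TNFAIP6 the share of dermal-like cells with 0 UMIs was 41.0%, 76.2% and 92.8%. At least 4 TNFAIP6 UMIs were found in 5.09% of the E60 cells and in 0 cells of both later stages, and the ratio of variance to mean was 1.41, 1.18 and 0.933. Among thinned dermal-like cells, those with at least 4 TNFAIP6 UMIs were thus found at E60 alone. This does not hold for the unthinned counts. There the highest TNFAIP6 count in a dermal-like cell of the E90 library was 9 UMIs, and the E120 maximum was 4 UMIs.

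**Figure D2:**
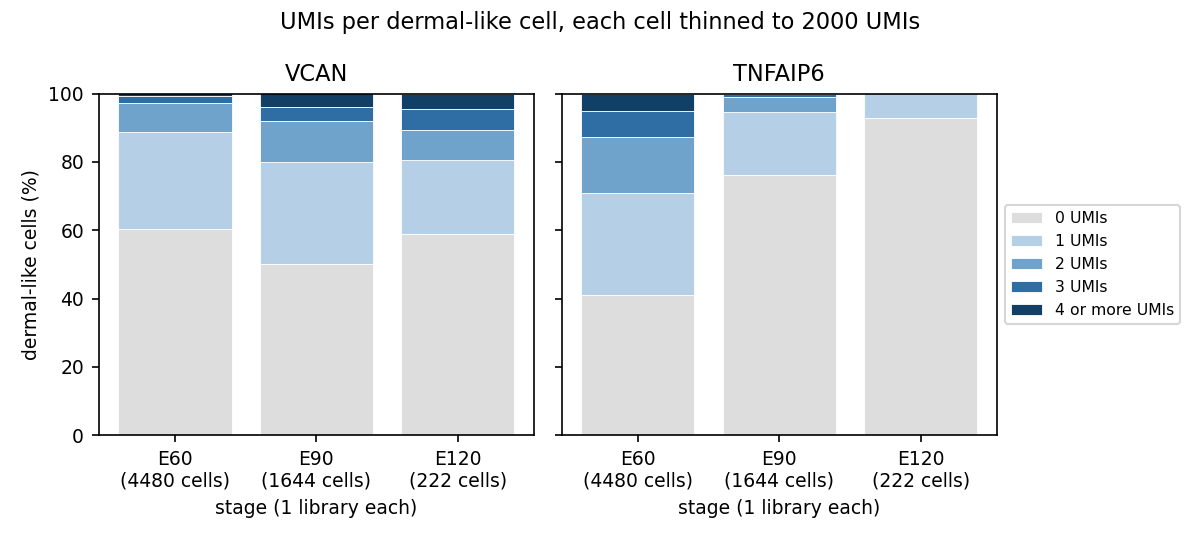
Stacked bars give the share of dermal-like cells (%) by number of VCAN or TNFAIP6 UMIs after each cell was thinned to 2000 UMIs, for E60, E90 and E120. Cells with 4 or more VCAN UMIs make up 0.625%, 4.08% and 4.50%, while cells without TNFAIP6 go from 41.0% to 92.8%.

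At E60 most of the UMIs of both genes came from dermal-like cells. These gave 69.6% of VCAN UMIs (68.9 to 70.2) and 71.4% of TNFAIP6 UMIs (70.9 to 71.9) with 65.4% of the cells. Tendon- or cartilage-like cells, 16.3% of E60 cells, gave 12.2% and 12.4%. An unnamed cluster of 652 cells nearest to dermal, with ANGPT1, GDF10 and ACTA2 among its leading genes, gave 11.5% and 13.3%. With these counted as dermal, which was decided with the data in view, the E60 shares were 93.3% for VCAN and 97.1% for TNFAIP6.

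The dermal-like clusters of E60 were not alike, and TNFAIP6 differed more between them than VCAN did. In the cluster led by TMEM35A, CDC42EP3 and CHN1 (1928 cells) TNFAIP6 was at 787 CPM (773 to 800) and VCAN at 341 CPM (332 to 350). This cluster gave 40.9% of the library's TNFAIP6 UMIs. In the cluster led by DKK1, ISM1 and CXCL14 (1370 cells), whose first gene encodes a secreted inhibitor of Wnt signalling, TNFAIP6 was at 272 CPM (263 to 282) and VCAN at 196 CPM (187 to 204). Cycling cells, led by the mitotic genes TOP2A and CENPF (1182 cells), had 480 CPM of TNFAIP6 (469 to 492) and 288 CPM of VCAN (280 to 298). The unnamed ANGPT1 and GDF10 cluster had 751 CPM of TNFAIP6 (729 to 774) and 348 CPM of VCAN (333 to 364). At a finer clustering an E60 cluster of 850 cells with ISM1 and DKK1 was down to 171 CPM of TNFAIP6 and 130 CPM of VCAN.

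Of 309 E60 cells with at least 4 TNFAIP6 UMIs after thinning, 181 (58.6%) were in the TMEM35A cluster and 58 in the unnamed one, against 13 in the DKK1 cluster. Cells with at least 4 VCAN UMIs were fewer, 47 at E60, of which 16 were in the TMEM35A cluster and 8 were Schwann- or glial-like. The TMEM35A cluster, the largest of E60, thus held the highest number of these cells for both genes. For TNFAIP6 they were 9.39% of its cells, against 8.90% of the unnamed cluster. For VCAN they were 0.830% of its cells, and the share was higher in 3 smaller classes. It was 13.6% of Schwann- or glial-like, 4.35% of skeletal-muscle-like and 0.905% of mural-like cells, and lower in the other E60 clusters.

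Outside the dermal classes of E60, VCAN was highest in Schwann- or glial-like cells. There it was at 834 CPM (761 to 913), found in 67.8% of 59 cells (54.4 to 79.4) after thinning and 94.9% before. That is 294% of the dermal-like level, while TNFAIP6 in these cells was at 169 CPM (136 to 206), 30.9% of it. Skeletal-muscle-like cells (46 cells) had VCAN at 354 CPM (299.8 to 414) and TNFAIP6 at 67.0 CPM (44.9 to 96.3). That TNFAIP6 value was 29 UMIs in 6 of the 46 cells, 15 of them in 1 cell. Mural-like cells, the contractile cells around vessels (221 cells), had 191 CPM of VCAN (173 to 209.99) and 272 CPM of TNFAIP6 (249.9 to 294). Glial- and muscle-like cells thus held VCAN above the dermal-like level of E60 and TNFAIP6 below it.

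Free RNA in droplets can give UMIs in cells that do not express a gene, and its size was not measured directly. Endothelial-like cells of E60, the lowest class of at least 50 cells for both genes (139 cells, median 16016 UMIs) had 18.4 CPM of VCAN (13.3 to 24.8) and 37.3 CPM of TNFAIP6 (29.9 to 46.0), found in 2.88% and 4.32% of thinned cells. Myeloid-like cells, a lineage in which both genes can be expressed (118 cells, median 8788 UMIs), had 42.2 CPM (31.2 to 55.7) and 65.4 CPM (51.5 to 81.8), found in 3.39% and 5.93%. In the myeloid-like cells VCAN was at 14.8% and TNFAIP6 at 12.0% of the dermal-like level, and the 12 dermal markers in the table had a median of 15.0% there. The muscle-like TNFAIP6 value overlapped that of the myeloid-like cells, and the glial-like VCAN value was far above both classes.

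**Figure D3:**
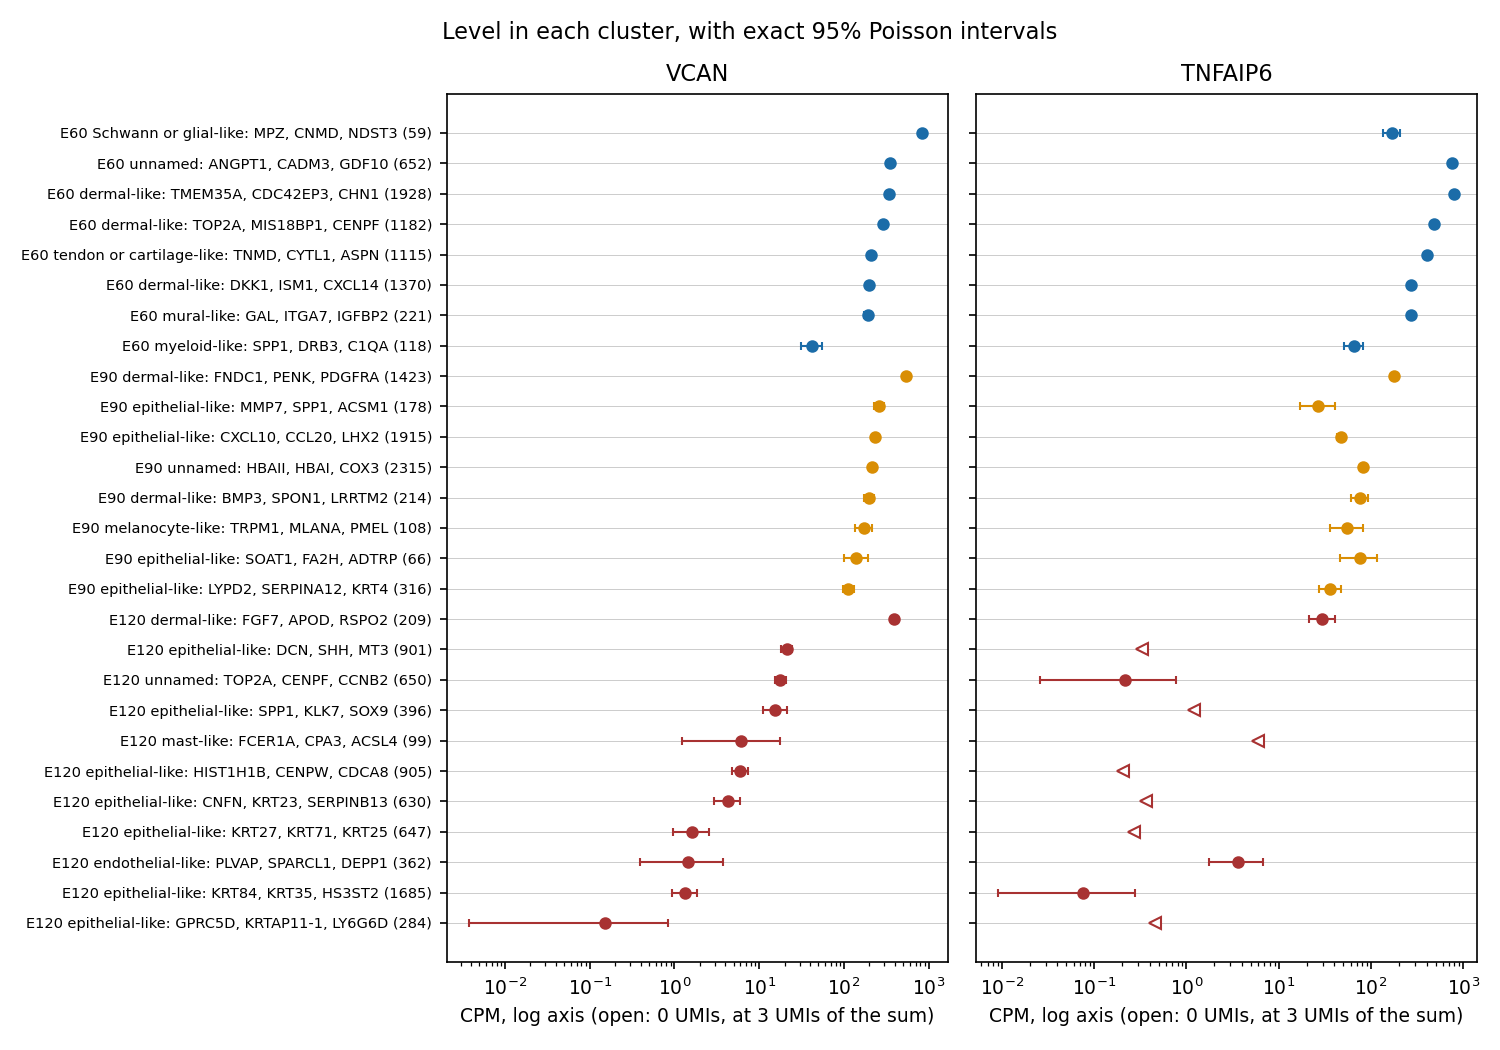
Level of VCAN and TNFAIP6 (CPM, log axis) in each cluster of at least 50 cells, each cluster restricted to its main library, with exact 95% Poisson intervals and clusters labelled by leading genes and number of cells. Open triangles mark 0 UMIs and stand at the level of 3 UMIs. The E60 clusters with dermal markers hold the highest TNFAIP6, and at E120 the papilla-like cluster stands far above the epithelial clusters in VCAN.

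At E90 the named dermal-like cells gave 42.3% of VCAN UMIs (41.2 to 43.3) and 47.1% of TNFAIP6 UMIs (45.1 to 49.0). These shares depended on which clusters were named, ranging from 22.1% to 58.1% for VCAN and from 24.9% to 70.0% for TNFAIP6 over the alternatives run. Epithelial-like cells gave 29.7% of VCAN and 19.7% of TNFAIP6 UMIs. An unnamed cluster of 2315 cells, whose leading genes were haemoglobin and mitochondrial genes, held nearly all of the 23.9% and 30.1% from unnamed cells.

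Within the E90 dermal-like class VCAN was concentrated in the cluster led by FNDC1, PENK and PDGFRA (1423 cells). It was at 543 CPM (524 to 561) there, with TNFAIP6 at 176 CPM (165 to 187). In the smaller cluster led by BMP3, SPON1 and LRRTM2 (214 cells) VCAN was at 198 CPM (173 to 226) and TNFAIP6 at 75.9 CPM (60.6 to 93.8). The finer clustering split off 265 cells with COCH, FNDC1, NDNF and PENK, where VCAN was at 894 CPM and TNFAIP6 at 287 CPM, the highest levels of both genes among its named E90 clusters of at least 50 cells. Of 103 E90 cells with at least 4 VCAN UMIs, 64 (62.1%) were in the FNDC1 cluster, and 4 were among the 10 Schwann- or glial-like cells of this library. Those 10 cells had VCAN at 1483 CPM (1210.45 to 1799), so the high glial-like VCAN of E60 was seen at E90 as well.

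VCAN was also counted in E90 epithelial-like cells, at 211 CPM (203 to 219.6), with TNFAIP6 at 41.6 CPM (38.1 to 45.5). These cells carried dermal markers too, and so did endothelial-like cells of E90, at 115 CPM of VCAN (82.0 to 156) and 43.1 CPM of TNFAIP6 (24.1 to 71.0). In thinned cells VCAN was found in 33.4% of epithelial-like, 17.6% of endothelial-like (10.2 to 27.4) and 49.9% of dermal-like cells, whose median depths were 3848, 3603 and 3760 UMIs. TNFAIP6 was found in 8.45%, 7.06% (2.63 to 14.7) and 23.8% of them. VCAN in epithelial-like cells was thus above its endothelial-like level, and for TNFAIP6 the intervals overlapped. Epithelial-like VCAN was not above that of mast- or myeloid-like cells of E90. Mast-like cells (67 cells) had VCAN at 273 CPM (213 to 344), found in 40.3% of thinned cells (28.5 to 53.0). Myeloid-like cells (49 cells) had it at 211 CPM (154 to 281), and melanocyte-like cells (108 cells) at 170 CPM (134 to 213). The part of free RNA in the epithelial-like values was not tested.

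Set against the dermal-like level of the same library, epithelial-like VCAN was at 43.2%. The 12 dermal markers lay between 22.7% and 42.3% there, with a median of 30.2%, so 0 of 12 were above VCAN. TNFAIP6 was at 25.8%, with 10 of 12 markers above it. In the follicle-type epithelial cluster led by CXCL10, CCL20 and LHX2 (1915 cells) VCAN was at 47.7%, against 25.3% to 49.6% for the markers. In a cluster led by MMP7, SPP1 and ACSM1 (178 cells) VCAN was at 53.1%, at 259.6 CPM (227 to 296), while the markers lay between 13.6% and 37.5% and TNFAIP6 was at 16.7%. In the suprabasal cluster led by LYPD2 and KRT4 VCAN was at 23.1%, with 5 of 12 markers above it. In the smallest one, led by SOAT1 and FA2H (66 cells), it was at 28.6%, with 10 of 12 above it. VCAN thus stood above or near the top of the markers' range in the LHX2 and MMP7 clusters and within it in the LYPD2 and SOAT1 clusters. A further 153 epithelial-like cells of E90 lay in a cluster led by SPP1, KLK7 and SOX9 that was mainly from E120. They were not compared on their own. In myeloid-like cells VCAN and TNFAIP6 were at 43.1% and 48.2%, against a marker median of 41.2%. In mast-like cells VCAN was at 55.8%, with 1 of 12 markers above it, and TNFAIP6 at 40.5%, with 7 of 12 above it.

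**Figure D4:**
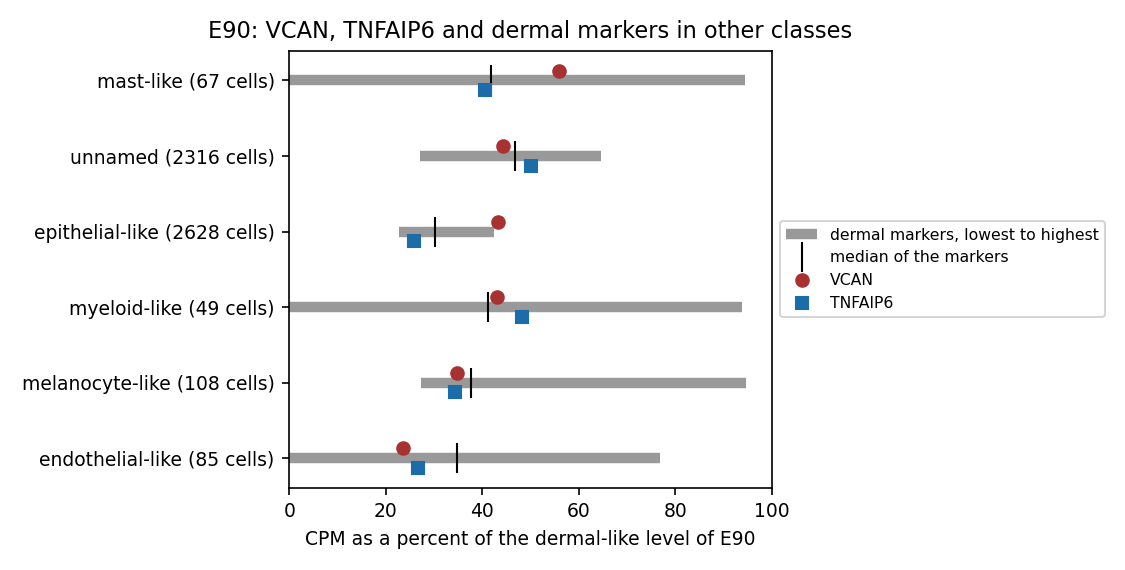
Level in each class of the E90 library as a percentage of the dermal-like level, with points for VCAN and TNFAIP6, grey bars from the lowest to the highest of the 12 dermal markers and ticks at their median. In epithelial-like cells VCAN, at 43.2%, is above all 12 markers, and TNFAIP6, at 25.8%, is below 10 of them.

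At E120 the few dermal-like cells, 3.22% of the library, gave 49.3% of VCAN UMIs (46.4 to 52.1) and 77.0% of TNFAIP6 UMIs (64.5 to 86.8). The papilla-like cluster had VCAN at 393 CPM (361 to 427) and TNFAIP6 at 29.8 CPM (21.5 to 40.2). In the dermal-like class 41.0% of thinned cells had VCAN and 7.21% had TNFAIP6. Of 12 cells with at least 4 VCAN UMIs, 9 were papilla-like. Mural-like cells (65 cells) kept VCAN at 99.9 CPM (71.0 to 137), which was 0.524-fold their E60 level (0.367 to 0.728), and had 0 TNFAIP6 UMIs, where 3 UMIs, the limit taken for a count of 0, would be 7.68 CPM.

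Epithelial-like cells of E120 were low in both genes. VCAN was at 5.17 CPM (4.68 to 5.69) over 5470 cells, and because there were so many this gave 33.3% of the library's VCAN UMIs. That was 1.28% of the dermal-like level, against 43.2% in the E90 library. The median of the dermal markers in epithelial-like cells was lower as well, at 0.185% over 10 markers against 30.2% over 12 at E90. At E120, 2 of the 10 were above VCAN. TNFAIP6 was counted with 2 UMIs in all these cells. Among their clusters VCAN was highest, at 21.1 CPM (18.2 to 24.3), in the one led by DCN (itself a dermal marker), SHH and MT3 (901 cells). The one led by SPP1, KLK7 and SOX9 had 15.5 CPM (11.0 to 21.2). Hair-shaft-type cells with KRT84 and KRT35 had 1.33 CPM. The lowest cluster, with GPRC5D and KRTAP11-1 (284 cells), had 0.150 CPM, which was 1 UMI. Unnamed cycling cells (650 cells) had 17.8 CPM (15.2 to 20.8). Endothelial-like cells had 1.46 CPM of VCAN, 4 UMIs in 362 cells. The same cells had 10 TNFAIP6 UMIs, 16.4% of the library's, of which 6 were in 1 cell.

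Within dermal-like cells the genes were only loosely found together. At E60, after thinning, 42.8% of cells with TNFAIP6 (40.9 to 44.7) and 34.8% of cells without it (32.6 to 37.1) also had VCAN. Inside the TMEM35A cluster the order was the opposite, at 45.4% (42.8 to 48.0) with and 50.9% (46.2 to 55.6) without, and in the DKK1 cluster it was 34.8% (30.6 to 39.2) with and 25.5% (22.6 to 28.6) without. Across all E60 dermal-like cells the Pearson r of thinned UMIs was 0.06, a description over cells of 1 library. At E90 the shares were 53.8% (48.7 to 58.8) with and 48.6% (45.8 to 51.5) without, and at E120 they were 43.8% (19.8 to 70.1) and 40.8% (34.0 to 47.8). Cells with both genes made up 25.3%, 12.8% and 3.15% of the dermal-like cells of E60, E90 and E120.

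Genes were also ranked by how alike their pattern was to each gene over 27 clusters of at least 50 cells from the 3 libraries, by Pearson r of log2(CPM + 1) among 2380 genes. The clusters share libraries, depth and free RNA, and stage differences enter these values. The nearest to VCAN were SMARCD3 (0.95), EFEMP2 (0.94), OLFML2B (0.94), COL1A2 (0.94), a chain of type I collagen, and MAP1A (0.93). TNFAIP6 stood at rank 68 there, with 0.87. The nearest to TNFAIP6 were LUM, which encodes the collagen-binding proteoglycan lumican, AKAP12, PID1 and ANPEP (each 0.98) and LSAMP (0.97). Within the 8 clusters of E60 alone, TNFAIP6 was at rank 430 of 1435 genes for VCAN, with 0.56. There the nearest to TNFAIP6 were TSPAN7, SPON2 and FN1 (each 0.98), FN1 encoding fibronectin, and TPST1 and TMEM35A (each 0.97). Those nearest to VCAN were RASSF8 (0.97), DHX36 and RSF1 (each 0.96), and PSMD7 and PCYOX1 (each 0.95).

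The other genes of the hyaluronan matrix were taken from a list of 46 that includes VCAN and TNFAIP6. Of these, 33 were in the table, and 15 reached 50 CPM in a library or in a class of at least 50 cells. In dermal-like cells 10 listed genes reached 50 CPM at E60 or E90. Of those, 1 was at least 2-fold higher at E90 (HAPLN3), beside 20.2% of all genes, and 6 were at least 2-fold lower (ADAMTS1, ADAMTS4, FBLN1, HMMR, TNC and TNFAIP6), beside 7.64%. The median log2 ratio of the 10 was -1.27, beside 0.03 over all 2501 genes. From E90 to E120, 4 of 10 were higher (ADAMTS4, FBLN1, HAPLN1 and TNC) and 2 lower (ADAMTS1 and TNFAIP6), beside 13.0% and 10.6% of all genes, with medians of 0.39 for the list and 0.06 for all genes. From E60 to E120, 4 of 11 were higher (ADAMTS4, FBN2, HAPLN1 and HAPLN3) and 3 lower (ADAMTS1, TNC and TNFAIP6), beside 22.2% and 9.84%, with medians of 0.48 and 0.16. Over whole libraries 0 listed genes were at least 2-fold higher at the later stage of either step, beside 13.1% and 14.8% of all genes. There 5 of 9 were lower from E60 to E90 (ADAMTS1, ADAMTS4, FBLN1, TNC and TNFAIP6), beside 11.5%. From E90 to E120, 4 of 5 were lower (ADAMTS1, FBLN1, TNFAIP6 and VCAN), beside 20.3%. The list medians of these steps were -1.01 and -2.06, beside -0.14 and 0.03 over all genes. All list counts and medians include VCAN and TNFAIP6, which were chosen with their levels in view, so no test of the list is drawn from them. In dermal-like cells TNFAIP6 and ADAMTS1 were the listed genes past the 2-fold limit downward at both steps, and VCAN was past it at neither. In whole libraries the genes past it at both steps were TNFAIP6, ADAMTS1 and FBLN1, and VCAN was past it from E90 to E120.

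Of the link proteins, which fasten versican to hyaluronan, HAPLN1 and HAPLN3 were found by symbol, and HAPLN2 and HAPLN4 were not. Both genes found were higher in dermal-like cells of E90 and E120 than of E60. In these cells they passed the 50 CPM limit for naming at later stages only, so no statement on link proteins as a family is drawn. HAPLN1 had 0.283 CPM (12 UMIs, 0.146 to 0.495) in E60 cells, 14.4 CPM (11.8 to 17.4) in E90 cells and 65.2 CPM (52.9 to 79.6) in E120 cells. HAPLN3 was at 23.5 CPM (22.0 to 25.0), 68.7 CPM (62.8 to 74.9) and 56.5 CPM (45.1 to 69.9). HAPLN3 was thus highest where VCAN was highest, while the E90 and E120 intervals of HAPLN3 overlapped. ITIH5, which encodes a relative of the heavy chains that TSG-6 transfers, was under 11 CPM in dermal-like cells of every stage. It was highest in E60 Schwann- or glial-like cells, at 97.6 CPM (73.6 to 127), and in E60 tendon- or cartilage-like cells, at 88.2 CPM (82.4 to 94.2). E120 mural-like cells were close to these, at 87.1 CPM (60.3 to 122).

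Of the receptors, CD44 was near level in dermal-like cells, at 163 CPM (159 to 167), 147 CPM (138 to 156) and 141 CPM (122 to 161). HMMR, a hyaluronan receptor that is also a mitotic gene, was at 77.1 CPM (74.5 to 79.8), 32.6 CPM (28.7 to 37.0) and 41.7 CPM (32.0 to 53.5). LYVE1 was at 766 CPM (717 to 819) in E60 myeloid-like and 362 CPM (338 to 388) in E60 endothelial-like cells. In dermal-like cells it was at 1.16 CPM at E60, 1.63 CPM at E90 and 0 UMIs at E120, where 3 UMIs would be 2.02 CPM. LAYN was at 149.9 CPM (136 to 165) in E120 endothelial-like cells. CEMIP2, which takes part in hyaluronan breakdown, was at 18.3, 19.0 and 32.3 CPM in dermal-like cells. LYVE1 and LAYN were thus highest outside the dermal-like class, and so were CD44, HMMR and CEMIP2. Among classes of at least 50 cells, CD44 was highest in E120 mast-like cells, at 480 CPM. HMMR was highest in unnamed cells of E120, at 163 CPM, and CEMIP2 in E60 Schwann- or glial-like cells, at 67.5 CPM.

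The proteases that cut versican differed from each other. ADAMTS1 in dermal-like cells was at 474 CPM (468 to 481), 188 CPM (178 to 198) and 75.3 CPM (62.0 to 90.6), the same order as TNFAIP6. ADAMTS4 was at 139.6 CPM (136 to 143), 37.8 CPM (33.5 to 42.5) and 333 CPM (304 to 364), lowest at the stage where VCAN was highest. Of the binding partners of versican, FBLN1 was at 1168 CPM (1158 to 1178), 245 CPM (234 to 257) and 1635 CPM (1571 to 1701). TNC, which encodes tenascin-C, was at 612 CPM (604 to 619), 39.0 CPM (34.6 to 43.8) and 95.5 CPM (80.4 to 113). FBN2, which encodes fibrillin-2, was at 58.5, 97.0 and 174 CPM. FBLN1, ADAMTS4 and TNC were thus lowest at E90, whereas VCAN was lowest at E60 and TNFAIP6 at E120. HMMR was lowest at E90 too, but its E90 and E120 intervals overlapped.

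**Figure D5:**
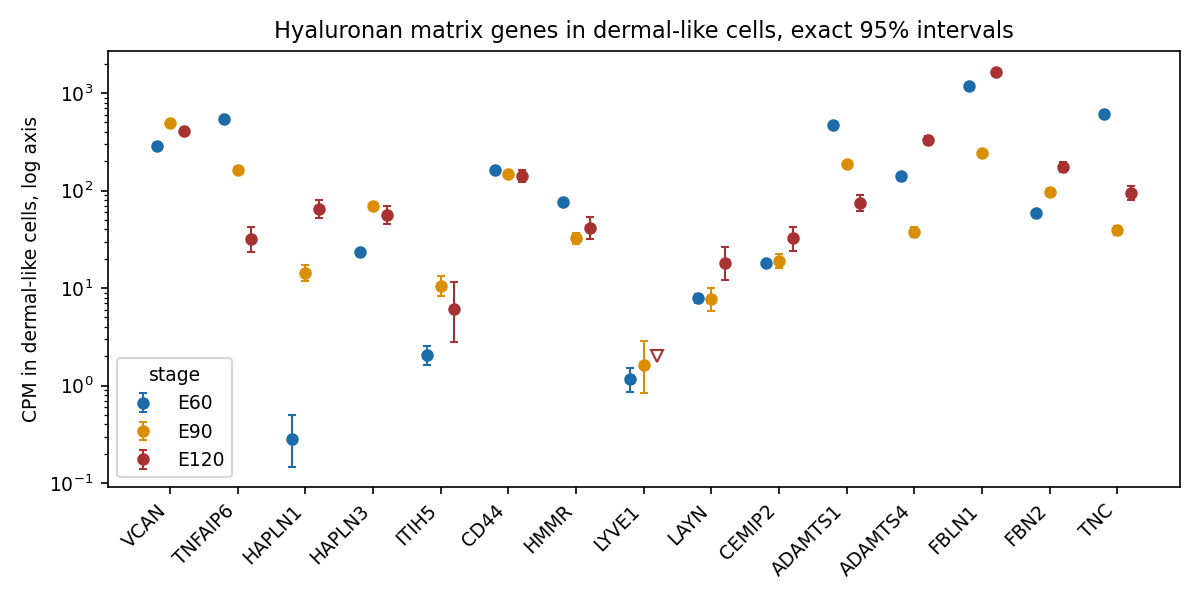
Level (CPM, log axis) in dermal-like cells at E60, E90 and E120 of the hyaluronan matrix genes that reached 50 CPM in a library or class, ordered by role, with exact 95% Poisson intervals and an open triangle where 0 UMIs were counted. TNFAIP6 and ADAMTS1 go down at both steps, HAPLN1 goes up at both, and VCAN stays between 284 and 489 CPM.

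The synthases HAS1 and HAS3 stayed under 50 CPM in every library and class, with top values of 3.84 and 4.06 CPM. The HAS1 value was 1 UMI in 67 mast-like cells of E90 (0.097 to 21.4). That of HAS3 was 38 UMIs in 650 unnamed cells of E120 (2.87 to 5.57). Also under 50 CPM in every library and class were ACAN, BCAN, NCAN, ITIH4, PTX3, STAB2, TLR4, HYAL1, HYAL2, HYAL3, CEMIP, ADAMTS5, ADAMTS9, ADAMTS15, ADAMTS20 and MFAP2. HAS2, HAPLN2, HAPLN4, ITIH1, ITIH2, ITIH3, AMBP, STAB1, SPAM1, FBLN2, FBN1, TNR and ELN were not found by symbol among the table's genes, and 4030 of those genes carry an Ensembl identifier instead of a symbol.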

How the data were processed

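The deposited table held natural log values of 1 plus a cell's UMI counts scaled to 10000, as the values show. Counts were recovered by inversion, as the analysis assumed (all whole within 0.01). The submitters' processing notes name Cell Ranger 3.0.2. Genome build and cell filters are not given in the sources used here. VCAN, TNFAIP6 and the gene lists were chosen with earlier results of these data known.

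All 20676 cells of the table were kept, 971 more than the 19705 in the design text. Which cells make up the difference was not analysed here. Clustering used 2000 variable genes (the 46 hyaluronan genes left out), 30 components, 20 neighbours and Leiden resolution 1 (leidenalg 0.10.2), giving 29 clusters, 22 of them over 90% from 1 library. A class needed at least 3 of its markers, and 3 clusters stayed unnamed. The scoring was set after the data were seen. A Scrublet-type caller marked 3.75%, 0.794% and 1.62% of E60, E90 and E120 cells and called 45.3%, 5.19% and 24.3% of simulated doublets. None was removed, except in alternatives. Stage ratios are log2 ratios of CPM + 1, and the steps were tested on simulated data. Named from the list was each gene of at least 50 CPM in a library or in a class of at least 50 cells, plus the 5 most alike genes (at least 100 CPM in a cluster). RefSeq assembly ARS1.2 served for names only.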

Additional observations from a re-analysis of the deposited data

How the results depend on the processing

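Each of 14 results, the stage ratios and dermal-like UMI shares, was recomputed under up to 10 alternatives, and in none did a ratio change direction. Of 106 values, 57 lay within the counting interval of the reported value and 49 outside it. On the log2 scale and over whole libraries, VCAN from E60 to E90 was 0.20 with median-of-ratios scaling and 0.43 in cells that had 1000 or more genes and no more than 10% mitochondrial UMIs. TNFAIP6 was -2.45 and -2.39 there, and -2.44 with 10 CPM added. From E90 to E120 VCAN was -3.68 with cells weighing the same, -3.66 with 10 CPM added and -4.67 in filtered cells, and TNFAIP6 was -5.24, -3.14 and -5.83 there. In dermal-like cells VCAN from E60 to E90 was 0.68 with cells weighing the same, 1.03 in filtered cells, 1.04 at Leiden resolution 0.5, 1.22 at resolution 2 and 0.84 with the hyaluronan genes allowed in the clustering. TNFAIP6 was -1.89, -1.57, -1.58, -1.31 and -1.63 there. VCAN from E90 to E120 was -0.51 in filtered cells, -0.092 without called doublets, -0.050 without the 6% highest doublet scores (chosen after the data were seen), -0.61 at resolution 0.5 and -0.67 at resolution 2, so its size there is uncertain, and TNFAIP6 was -2.78 at resolution 2. The dermal-like share of VCAN UMIs at E60 was 71.4% without called doublets, 72.0% without the highest scores, 63.4% and 54.9% at resolutions 0.5 and 2, 77.4% with the hyaluronan genes in the clustering and 93.3% with tendon-like and unnamed dermal clusters added. For TNFAIP6 it was 73.2%, 73.5%, 69.2%, 56.9%, 81.9% and 97.1%. At E90 the VCAN share was 58.1% in filtered cells, 23.0% and 22.1% at resolutions 0.5 and 2, and 32.9% with the hyaluronan genes in the clustering, and the TNFAIP6 share was 70.0%, 25.8%, 24.9% and 39.4%. At E120 the VCAN share was 45.5% and 45.7% at the resolutions 0.5 and 2. Median-of-ratios scaling moved the median log2 ratio of all genes from -0.26 to -0.15 between whole E60 and E90 libraries, and from 0.14 to 0.02 between dermal-like cells of E90 and E120. No paired analysis was possible because each stage is 1 library, and leaving out a replicate could not be run for the same reason. The 61 TNFAIP6 UMIs of E120 limit any split of that library.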
